A study of Mus musculus with 12 samples.

Results

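L1Md_A is a subfamily of LINE-1 (L1) retrotransposons in the mouse genome, and its loci are the copies of that subfamily named one by one in the repeat annotation. They were taken from the authors' locus tables by repeat name, with no filter on a measured value, although earlier results of these data were known. The locus tables list 6562 L1Md_A loci of 781935 repeat loci in all, and the table of repeat subfamilies holds 1 row for L1Md_A, which sums the reads of all copies. The numbers in the locus names reach 16799, so the listed loci are not every numbered copy. Names such as L1Md_A_3685 carry no position, length or strand, and positions and sequences of these loci were not analysed here.

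L1 elements copy themselves through an RNA that codes for ORF1p, an RNA-binding protein, and for ORF2p, an endonuclease and reverse transcriptase. ORF1p coats the L1 RNA that encodes it and forms ribonucleoprotein particles with it. L1Md_A, L1Md_T and L1Md_Gf are the subfamilies with young, mobile copies in the mouse, whereas the L1Md_F subfamilies are older. In the male germline the piRNA pathway, which needs MAEL, keeps L1 silent, and L1 RNA and ORF1p accumulate in spermatocytes that lack it.

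All 12 libraries came from testes of Mael-/- mice on a C57BL/6 background at about 3 months of age, with 3 libraries in each of 4 groups, so no group carried an intact Mael gene. TOTAL was RNA of the whole testis extract, to which EDTA was also added at 10 mM. INPUT was RNA of pooled fractions 5 to 8 of a 10 to 50% sucrose gradient run with 10 mM EDTA, which takes ribosomes apart. IP was RNA pulled from such fractions by beads with an antibody to ORF1p, and BO was RNA held by beads only, with no antibody. The RNA put into a library was 200 ng in TOTAL and INPUT but 20 to 40 ng in IP, and BO used the same volume as the IP sample it accompanied. The labels do not say whether the libraries of a group came from separate animals, so p-values measure the spread between these libraries, which may be technical.

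The libraries held between 1384904 and 7282171 reads on repeat subfamilies, and the IP group had the fewest on average. In BO replicate 3, 52.1% of these reads fell on the LSU ribosomal RNA repeat, against 1.93 to 15.9% in the other 11 libraries. Mael itself had a group mean of 0.65 normalized counts in TOTAL, 0.502 in BO and 0 in INPUT and IP. The germ cell markers Ddx4, Dazl, Sycp1, Sycp3 and Piwil1 were present in every group, and the liver genes Alb, Apoa1 and Ttr stayed at or below 4.73. The spermatid markers Prm1, Tnp1 and Acrv1, with 63.8 summed normalized counts in TOTAL, were far below the germ cell markers, with 31820. In bulk RNA, fewer cells of a type and less RNA per cell cannot be told apart.

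RNA of L1Md_A was most abundant in the IP libraries and, in normalized counts, least abundant on beads with no antibody. The lower end of this order depends on the scaling, since as a share of all subfamily reads L1Md_A was 0.385% ± 0.17 (SD, n = 3) in TOTAL, 0.560% ± 0.22 (SD, n = 3) in BO, 0.740% ± 0.19 (SD, n = 3) in INPUT and 3.80% ± 0.91 (SD, n = 3) in IP. In units of normalized reads, where the authors set the upper quartile over subfamilies to the same value in each library, the L1Md_A count was 95645, 75201 and 56029 in IP replicates 1, 2 and 3. It was 15633, 14530 and 14131 in BO, 27258, 18980 and 17934 in INPUT, and 26309, 19342 and 18284 in TOTAL. Every IP library lay above every library of the other groups, and every BO library lay below every INPUT and TOTAL library, while INPUT and TOTAL overlapped. Replicate 1 was the highest library in each of the 4 groups. These counts rest on 57442 to 65026 L1Md_A reads per IP library and 8812 to 25082 per BO library.

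In limma's fit of all subfamilies, L1Md_A was called higher in IP in each comparison, a call being a log2 fold change beyond 1 in size with an adjusted p under 0.05. Against BO its log2 fold change was 2.32 with a standard error of 0.20 (limma, adjusted p = 5.61e-06), in position 7 of 1180 subfamilies. Against INPUT the change was 1.81 (limma, adjusted p = 6.59e-05), in position 6, and against TOTAL it was also 1.81 (limma, adjusted p = 7.64e-05), in position 9. Of all subfamilies tested, the share called higher in IP was 5.08% against BO, 3.22% against INPUT and 2.88% against TOTAL, and the share called lower was 3.81, 2.88 and 3.47%. With scaling to library totals, L1Md_A was again called higher, but 126, 130 and 1011 of 1173 subfamilies were called with it against BO, INPUT and TOTAL. Without BO replicate 3, the library rich in ribosomal RNA, the value in IP vs. BO was 2.29 (adjusted p = 4.65e-05 from limma).

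The sucrose fractions held L1Md_A in about the same proportion as the extract, with a log2 fold change of -0.0014 in INPUT vs. TOTAL (standard error 0.20, adjusted p = 0.999 from limma). This value depends on the scaling, since scaling to library totals raised it to 1.003 (adjusted p = 0.0150 from limma) and moved the median of all subfamilies to 1.03 as well. By that scaling L1Md_A met the definition of a call, as did 631 of 1173 subfamilies higher in INPUT, and 5 were called lower. With the authors' normalization limma called 0 subfamilies higher in INPUT and 4 lower, or 0.339% of those tested. At an unadjusted p under 0.05 there were 107 higher and 94 lower, and edgeR called 0 higher and 6 lower. BO held less L1Md_A than INPUT by 0.51 on the log2 scale, which is short of the size of a call. Its adjusted p from limma was 0.0824, and 0.00421 with the replicate number as a block. Over all alternatives it ran from 0.00421 to 0.706. Of the subfamilies tested, 2.63% were called higher in BO and 2.8% lower.

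Markers of cell types moved between the same groups. All 5 germ cell markers had a higher mean in IP than in BO, INPUT and TOTAL, and their summed level was 8.48, 5.18 and 5.32 times as high in IP. All 3 Leydig cell markers, Cyp17a1, Insl3 and Star, were lower in IP than in INPUT, with a summed level of 7631 against 27446, and higher in IP than in BO, with 5823 against 2838. Against TOTAL the summed Leydig cell markers were 0.164 times as high in IP. The Sertoli cell markers Sox9, Wt1 and Rhox5 summed to 2068 in IP against 5672 in BO, although Rhox5 alone went the other way, with 93.1 against 56.2. All 3 were lower in IP than in INPUT and TOTAL, with summed levels 0.779 and 0.392 times as high. The 3 spermatid markers were also all lower in IP than in INPUT and TOTAL. They summed to 2.32 in IP against 20.3 in INPUT, and to 2.33 against 63.8 in TOTAL. Against BO both sums were very low, with 1.77 in IP and 0.921 in BO. The part of these shifts in the L1Md_A values was not tested.

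**Figure D1:**
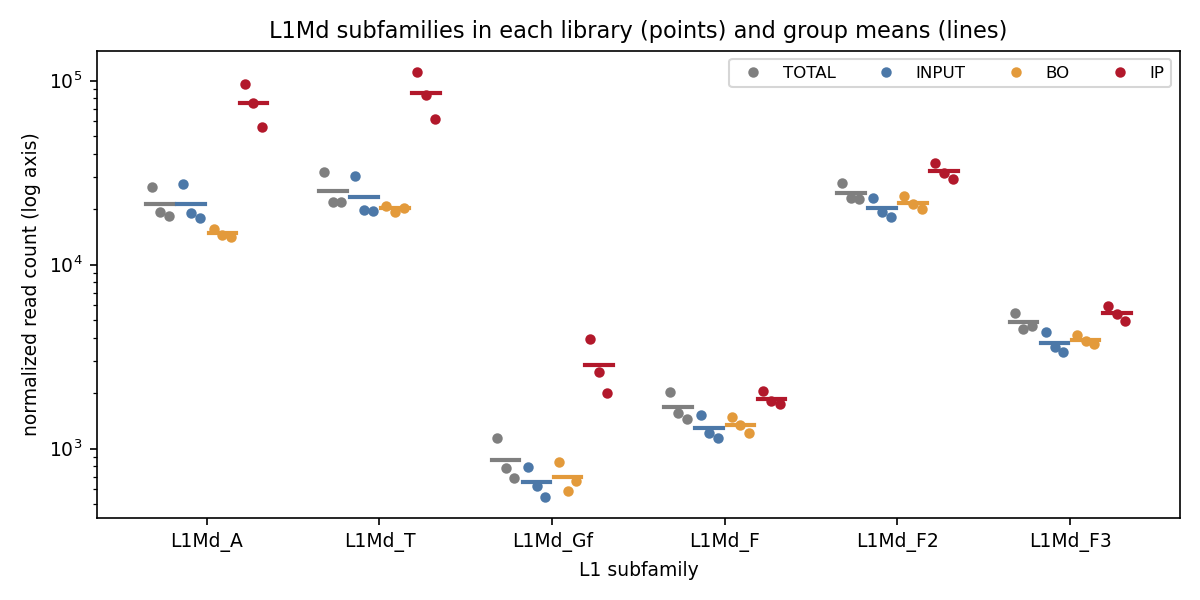
Normalized read count (log axis) of 6 L1Md subfamilies in the 3 libraries of each group (points, replicates 1 to 3 from left to right) with the group mean (line). L1Md_A in IP spans 56029 to 95645, above every library of TOTAL, INPUT and BO, and L1Md_T and L1Md_Gf show the same order of IP over the other groups.

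As a share of all reads on L1 subfamilies, L1Md_A took 19.2, 16.7 and 13.7% in IP replicates 1, 2 and 3. In BO its share was 3.98, 3.85 and 4.05%, in INPUT 8.12, 6.58 and 6.43%, and in TOTAL 7.34, 6.31 and 6.06%. The groups kept the same order as in the normalized counts, and BO was the group with the least spread. Among 132 L1 subfamilies, L1Md_A held position 2 in every IP library and position 3 in every TOTAL library, but position 5 to 8 in BO.

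The young subfamilies moved together with L1Md_A, and the older ones moved less. L1Md_T had a log2 fold change of 2.05, 1.87 and 1.75 in IP vs. BO, INPUT and TOTAL, and L1Md_Gf of 1.99, 2.07 and 1.68, and all 6 values were called by limma. L1Md_F, L1Md_F2 and L1Md_F3 had log2 fold changes of 0.16 to 0.67 over the same comparisons, and none of these reached 1. With scaling to library totals they were 0.97 to 1.94, and 7 of the 9 were called higher. L1Md_A had the highest of the 6 in IP vs. BO and TOTAL, and L1Md_Gf in IP vs. INPUT.

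Ratios within a library do not depend on the scaling and were taken for L1Md_A to each of the other 5 subfamilies. The log2 ratio of L1Md_A to L1Md_T was -0.22, -0.16 and -0.15 in IP and -0.42, -0.42 and -0.52 in BO. All IP libraries lay above all BO libraries, by a mean of 0.28, so the beads without antibody held less L1Md_A for each L1Md_T read. Against INPUT and TOTAL the ratio differed by -0.06 and 0.06 and the libraries overlapped. To L1Md_Gf, which had far fewer reads, the log2 ratio was 4.60, 4.86 and 4.80 in IP and 5.09, 4.92 and 5.03 in INPUT, so INPUT lay above IP with no overlap. To L1Md_F2, the most abundant of the older subfamilies, it was 1.42, 1.26 and 0.95 in IP, against -0.60, -0.56 and -0.50 in BO and 0.24, -0.03 and -0.02 in INPUT.

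Of 15 such comparisons 11 had no overlap, among them the 9 to the L1Md_F subfamilies, with differences of 1.15 to 1.85 on the log2 scale. The share without overlap over all subfamilies was not counted. The median subfamily had log2 fold changes of -0.12, -0.06 and -0.05 in IP vs. BO, INPUT and TOTAL. The lack of overlap is therefore not read as particular to the L1Md_F subfamilies. Groups of 3 libraries allow no exact two-sided permutation p below 0.1, and that value was reached wherever libraries did not overlap. After Benjamini-Hochberg adjustment over the 15 tests these p-values were 0.136 from the exact permutation test, so no ratio passed a threshold of 0.05.

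The locus tables gave a different and smaller quantity, the mean normalized count of each locus in a group as deposited by the authors, with no value per library. The authors' own statistics for loci in these tables were not used, so no spread between libraries and no test is given for loci, and the 3 tables, each with IP and 1 other group, were scaled separately. IP values are those of the table with BO unless stated otherwise. A single read in 1 library was worth 0.249 to 0.323 in a mean of IP and 0.239 to 0.502 in a mean of BO, depending on the library. From these values, the reads placed on single L1Md_A loci were 19.5 to 25.3% of the reads of the collapsed L1Md_A row in IP, 14.0 to 29.3% in BO, 18.3 to 24.7% in INPUT and 17.2 to 26.8% in TOTAL. For the older L1Md_F2 the share in IP was 42.5 to 55.1%, so the locus view covered less of L1Md_A than of L1Md_F2.

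Seen over all subfamilies, the summed locus means of L1Md_A came to 15.1% of its collapsed count in IP, against a median of 28.6% over 231 subfamilies, of which 25 were lower. The same ratio to the median was 0.526 in IP, 0.559 in TOTAL, 0.582 in INPUT and 0.589 in BO, so the locus tables hold a low share of L1Md_A reads in each group. Near-identical copies share reads, and how reads were assigned to single loci is not given in the sources used here. A value at a named locus is therefore uncertain as to the copy the RNA came from.

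The L1Md_A signal was spread over many loci in every group. Of 6562 loci, 4674 were above 0 in IP (71.2%), 3451 in INPUT, 3332 in TOTAL (50.8%) and 2390 in BO, and 622 were at 0 in all 4 groups. The order followed the number of reads on these loci, about 39068 in IP, 16261 in INPUT, 15129 in TOTAL and 8169 in BO. At an equal 8169 reads, the expected number of loci with a read was 2595 in IP, 2638 in INPUT, 2592 in TOTAL and 2390 in BO. At that depth IP, INPUT and TOTAL covered nearly the same number of loci. BO cannot be placed among them, since its means allow 6292 to 13217 reads, and the expected number at these depths was 2286 to 3203 in IP, 2339 to 3203 in INPUT and 2299 to 3153 in TOTAL. Loci that rest on 1 read made up 28.8% of loci above 0 in IP and 38.6% in BO, and held 3.46 and 10.8% of the signal.

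The share of the signal on the top 10 and top 100 loci differed little among TOTAL, INPUT and IP and was higher in BO. The strongest locus alone differed more, with 2.11% in TOTAL, 1.51% in INPUT, 3.56% in BO and 0.827% in IP. The 10 loci with the highest means held 5.72% of the L1Md_A signal in IP, 5.40% in INPUT, 6.65% in TOTAL and 8.90% in BO. The top 100 loci held 23.5% in IP, 21.5% in INPUT, 22.5% in TOTAL and 27.8% in BO. To reach 50% of the signal took 416 loci in IP, 452 in INPUT, 430 in TOTAL and 330 in BO, and to reach 90% took 2223, 2035, 1944 and 1508. BO had the fewest reads on L1Md_A loci, and the part of that low number in these shares was not tested.

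The effective number of loci, the inverse of the summed squared shares, was 909 in IP, 911 in INPUT, 717 in TOTAL and 412 in BO. A single locus weighed heavily in this measure, since without L1Md_A_3685 the values were 953, 1117, 1010 and 799. With that locus left out, BO remained the lowest and INPUT the highest. For comparison, the effective number in IP was 1493 for 9583 loci of L1Md_T and 288 for 14325 loci of L1Md_F2. L1Md_F2 thus had more listed loci than L1Md_A and a more concentrated signal.

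**Figure D2:**
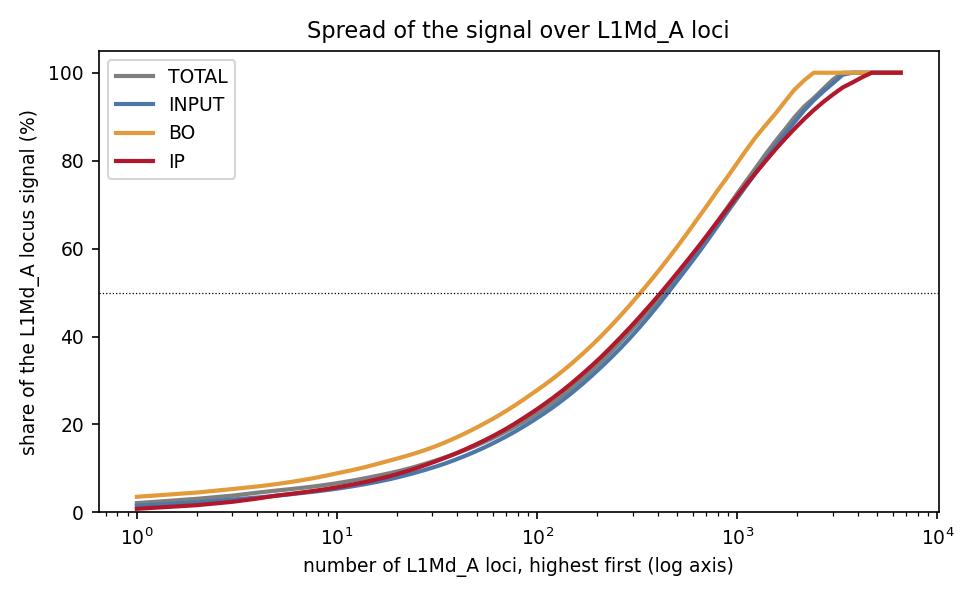
Cumulative share of the L1Md_A locus signal (%) against the number of loci taken from the highest down (log axis), with 1 line for each group. The lines of TOTAL, INPUT and IP run close together and cross 50% at 430, 452 and 416 loci, and the BO line lies above them and crosses at 330.

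Loci above 0 in every group carried most of the signal, which follows in part from their choice, since loci of high mean are the ones likely to be above 0 throughout. The 1410 loci above 0 in all 4 groups, 21.5% of the listed loci, held 71.6% of the signal in IP, 69.1% in TOTAL, 69.9% in INPUT and 79.3% in BO. At the other end, 1052 loci were above 0 in IP and at 0 in the other groups, and together they held 4.67% of the IP signal. Another 731 loci were above 0 in all groups but BO and held 11.9% of the IP signal. Since IP had the most reads on L1Md_A loci, a locus at 0 elsewhere may be one that the fewer such reads of those groups missed.

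The strongest loci were partly the same from group to group. Of the top 100 loci of IP, 59 were among the top 100 of BO, 57 among those of TOTAL and 56 among those of INPUT, and 34 loci were among the top 100 in all 4 groups. The 100 loci strongest in INPUT held 19.3% of the IP signal, where the 100 strongest in IP itself held 23.5%. Over all 6562 loci the Spearman correlation of the means was 0.58 between IP and INPUT, 0.57 between IP and TOTAL and 0.47 between IP and BO, as a description. These loci share libraries, reads of near-identical copies and a depth at which many means rest on few reads.

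L1Md_A_3685 had the highest mean in every group, but its mean was no higher in IP than in BO. Its mean was 91.6 in TOTAL, 69.4 in INPUT, 112 in BO and 94.2 in IP. Its share of the L1Md_A signal was 3.56% in BO, 2.11% in TOTAL, 1.51% in INPUT and 0.827% in IP, so it was highest where no antibody was used and lowest with the antibody. With nothing added to the means, as for each named locus, the log2 ratio of its IP mean to its BO mean was -0.25 (95% counting interval -0.51 to 0.0044), whereas the ratio of the summed L1Md_A means was 1.85. In the tables with INPUT and TOTAL its log2 ratio was 0.83 and 0.43, below the 1.70 and 1.78 of the summed means. Counting intervals here treat reads as independent molecules, cover counting error only and leave out the spread between libraries.

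L1Md_A_5091 was the locus next to it in BO and also had no more signal in IP than in BO, though it was named for its BO mean, a choice that favours a low ratio. Its mean was 10.5 in TOTAL, 17.8 in INPUT, 30.7 in BO and 26.3 in IP, and its log2 ratio of IP to BO was -0.22 (95% counting interval -0.72 to 0.28). Against INPUT the log2 ratio was 0.95 (95% counting interval 0.44 to 1.48), and against TOTAL it was 1.72 (95% counting interval 1.11 to 2.35), an interval that holds the ratio of the sums. Its rank was 2 in BO and 33 in IP. L1Md_A_112, singled out after its values were seen, had 29.3 in TOTAL, 11.4 in INPUT, 15.1 in BO and 10.8 in IP, so it was strong in the extract and lower in IP than in BO.

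The other loci at the top of IP had a higher mean there than in BO. Since they were named for their IP mean, a high ratio is favoured by the choice, and their intervals describe counting error and test nothing. L1Md_A_2595 had a mean of 31.2 in TOTAL, 28.8 in INPUT, 25.0 in BO and 94.0 in IP, with a log2 ratio of IP to BO of 1.91 (95% counting interval 1.47 to 2.38), an interval that holds the ratio of the summed means. L1Md_A_16742 had 42.8 in TOTAL, 36.7 in INPUT, 14.1 in BO and 86.4 in IP, and its log2 ratio of 2.62 (95% counting interval 2.05 to 3.23) lay above that of the sums. Against TOTAL the log2 ratio of L1Md_A_16742 was 1.40 (95% counting interval 1.09 to 1.71), below the 1.78 of the sums. For L1Md_A_2595 the interval against TOTAL also holds the ratio of the sums, but against INPUT its log2 ratio of 2.09 (95% counting interval 1.74 to 2.46) lay above the 1.70 of the sums.

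L1Md_A_12040 and L1Md_A_1516 were among the loci that stood higher in the order of IP than in that of the extract. L1Md_A_12040 had a mean of 11.3 in TOTAL, 18.8 in INPUT, 16.6 in BO and 85.4 in IP, and went from rank 16 in TOTAL to 5 in INPUT and 4 in IP. L1Md_A_1516 had 7.64 in TOTAL, 20.2 in INPUT, 10.9 in BO and 77.3 in IP, and went from rank 45 to 4 and 5. For both loci the share of the L1Md_A signal was higher in INPUT than in TOTAL and higher again in IP, with 0.176, 0.442 and 0.678% for L1Md_A_1516. For L1Md_A_1516 the log2 ratio to TOTAL was 3.72 (95% counting interval 3.10 to 4.41), the sums giving 1.78. This locus was named for its high ratio to TOTAL as well as for its IP mean. A ratio above that of the sums is favoured by that choice and tests nothing.

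L1Md_A_7543, L1Md_A_4696 and L1Md_A_3735 complete the 8 highest loci of IP, with means of 49.0, 44.7 and 41.4. In BO their means were 5.99, 17.3 and 3.79. L1Md_A_7543 and L1Md_A_3735 also rose in the order, from rank 23 and 64 in TOTAL to 17 and 25 in INPUT and 6 and 8 in IP. The ranks of L1Md_A_4696 were 8, 27 and 7. The log2 ratio of IP to BO was thus 1.37 for L1Md_A_4696 and 3.03 and 3.45 for the others, and the interval of L1Md_A_4696 (0.82 to 1.96) did not reach that of L1Md_A_3735 (2.36 to 4.79).

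**Figure D3:**
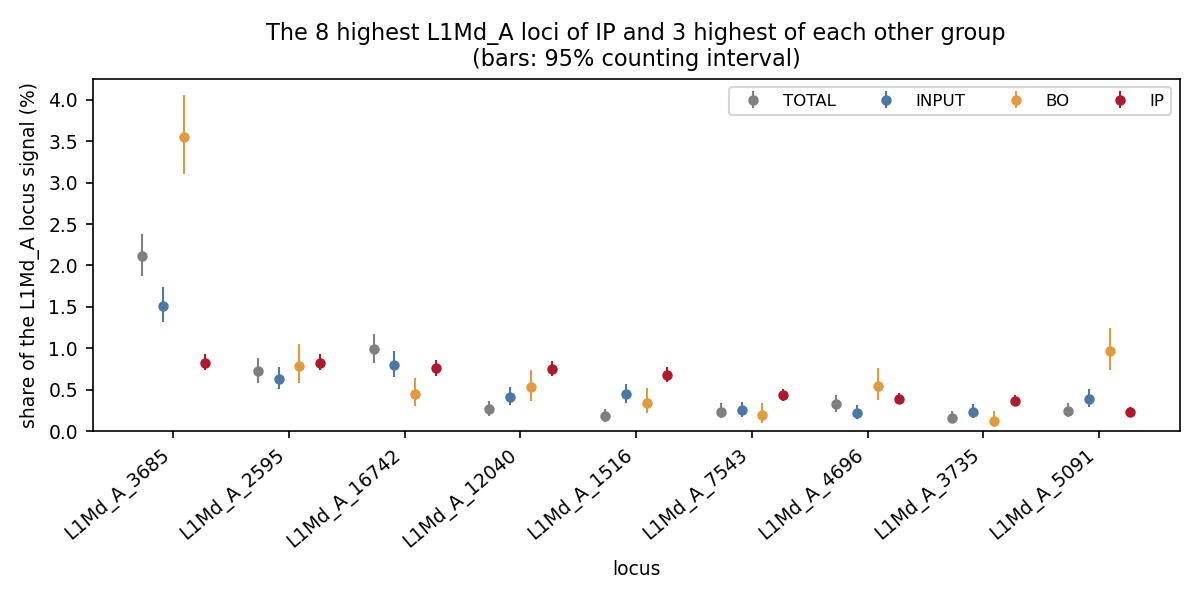
Share of the L1Md_A locus signal (%) of the 9 loci that are among the 8 highest of IP or the 3 highest of TOTAL, INPUT or BO, in the order of their IP mean, with 1 point for each group and bars for the 95% counting interval. L1Md_A_3685 falls from 3.56% in BO to 0.827% in IP. L1Md_A_5091 and L1Md_A_4696 are also highest in BO, and L1Md_A_16742 is highest in TOTAL. L1Md_A_2595, L1Md_A_12040, L1Md_A_1516, L1Md_A_7543 and L1Md_A_3735 are highest in IP, for which they were named.

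Summed over loci, L1Md_A was 3.61 times as high in IP as in BO, 3.26 times as high as in INPUT and 3.43 times as high as in TOTAL. The other loci of LINE, SINE, LTR and DNA elements summed to log2 ratios of -0.56, -0.19 and -0.12 in the same tables, so these were lower in IP or nearly equal where L1Md_A loci were higher. The summed L1Md_T loci gave log2 ratios of 1.70, 1.75 and 1.76, L1Md_Gf loci 1.51, 1.85 and 1.71, and L1Md_F2 loci 0.40, 0.91 and 0.69. L1Md_F loci gave 0.29, 0.72 and 0.45, and L1Md_F3 loci 0.38, 0.89 and 0.60. The young subfamilies thus lay above the older ones in the locus sums, as in the collapsed counts. The L1Md_A value against BO was smaller, 1.85 in place of 2.32, and the L1Md_F2 value against INPUT larger, 0.91 in place of 0.67. Locus sums are scaled otherwise and cover only a part of the reads, so their size cannot be set directly against the collapsed values.

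Most L1Md_A loci with enough signal had a higher mean in IP. To keep the compared values out of the choice of loci, they were first taken by their mean in a group outside the comparison. Of 130 loci with a mean of at least 5 in TOTAL, 102 had a log2 ratio of IP to BO above 1, with 1 added to each mean, where 15.6% of all repeat loci chosen in the same way did. The median was 1.76 for L1Md_A and -0.34 for all repeat loci. In IP vs. INPUT, 102 of the 130 loci were above 1, against 12.2% of repeat loci, with a median of 1.68 against -0.49. In IP vs. TOTAL, 120 of 145 loci chosen by INPUT were above 1, against 8.71% of repeat loci, with a median of 1.87 against -0.47.

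A small number of loci went the other way. With the same choice of loci, 4 of 130 had a log2 ratio of IP to BO below -1, as had 4 of 130 for INPUT and 6 of 145 for TOTAL. The share of repeat loci below -1 was 30.8, 33.4 and 29.3%.

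**Figure D4:**
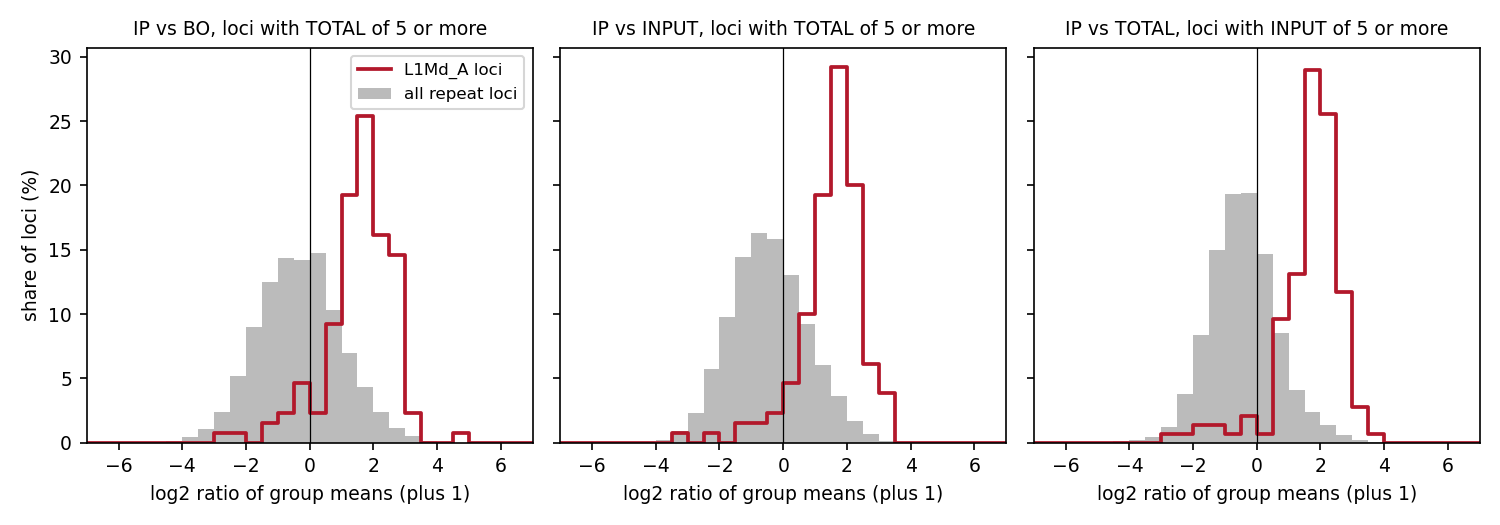
Share of loci (%) by the log2 ratio of IP to BO, INPUT and TOTAL, in steps of 0.5 with 1 added to each mean, for L1Md_A loci (red line) and all repeat loci (grey bars) with a mean of at least 5 in a group outside the comparison. The L1Md_A loci peak between 1.5 and 2, with medians of 1.76, 1.68 and 1.87, and the repeat loci peak near or below 0.

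With the filter on the compared groups themselves, an average of the group means of at least 5, more loci passed. Through that filter 284 of 6562 loci passed for the ratio of IP to BO, 451 for INPUT and 455 for TOTAL, and these counts are a description, because a locus can pass through its IP mean alone. Above a log2 ratio of 1 were 252, 389 and 387 of them, where 15.2, 20.2 and 21% of all repeat loci past the filter were. Below -1 were 2, 1 and 6, against 46, 32 and 23.2% of repeat loci. From 5 to 95% of the loci that passed, the log2 ratio to BO ran from 0.56 to 3.05.

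The loci with the highest ratios to BO had almost no signal on the beads. L1Md_A_2453 had a mean of 29.0 in IP and of 0.239 in BO, the value of 1 read, and of 7.64 in TOTAL and 2.95 in INPUT. L1Md_A_13492, L1Md_A_6577, L1Md_A_15247 and L1Md_A_12868 had IP means of 13.5, 12.8, 12.7 and 12.2 and were at 0 in BO. Their IP means were 8.94, 8.51, 8.45 and 8.13 times a floor of 3 reads over the BO group, with no allowance for counting error in IP. All the loci named here passed the filter through their IP mean and were named for their ratio. That choice favours a low bead signal and a high ratio, so these values describe the loci and test nothing. Each of these 4 loci had a mean of 2.02 to 4.81 in TOTAL and of 1.98 to 6.26 in INPUT. Reads were thus assigned to them in the extract and in the fractions, though the copy the RNA came from is uncertain.

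Against INPUT and TOTAL, the highest log2 ratios belonged to loci with means under 3 in those groups, except that L1Md_A_1516, described above, had 7.64 in TOTAL. Naming loci for a high ratio favours low means there, and a locus can pass the filter through its IP mean alone. These values therefore describe the loci and test nothing. L1Md_A_14544 had a mean of 2.52 in INPUT and 34.6 in IP of the same table, a log2 ratio of 3.34 with 1 added to each mean, by which loci were ranked, and of 3.78 with nothing added (95% counting interval 2.67 to 5.14). L1Md_A_1749 had 2.02 in INPUT, 2.04 in TOTAL and 25.2 in IP of the table with INPUT. L1Md_A_11730 had 1.37 in TOTAL and 25.7 in IP of the table with TOTAL. L1Md_A_9802, L1Md_A_15475, L1Md_A_7856 and L1Md_A_15253 had IP means of 8.12 to 11.4 in the table with BO and rested on 1 read in TOTAL or, for L1Md_A_15253, in INPUT.

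The loci with the lowest ratios included some that were strong in the extract. L1Md_A_16639, rank 5 in TOTAL, had a mean of 21.1 in TOTAL, 10.8 in INPUT, 3.60 in BO and 7.35 in IP, and its log2 ratio to TOTAL was -1.15 (95% counting interval -1.92 to -0.43). L1Md_A_13841, rank 9 in TOTAL, had 14.0, 6.81, 8.07 and 3.02, with a log2 ratio of IP to BO of -1.42 (95% counting interval -2.78 to -0.15). Both loci were named for low ratios, a choice that favours a low IP mean, so these intervals test nothing. Their share of the L1Md_A signal was lower in INPUT than in TOTAL, and they were well down the IP order, at rank 345 and 954.

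L1Md_A_3273 and L1Md_A_633 were high in TOTAL and nearly absent in IP. L1Md_A_3273 had a mean of 9.74 in TOTAL, 0.988 in INPUT, 0 in BO and 0.801 in IP. L1Md_A_633 had 9.65 in TOTAL, 4.04 in INPUT, 7.88 in BO and 1.20 in IP, so it differed from L1Md_A_3273 in its bead signal. L1Md_A_16129 had 10.4 in TOTAL, 7.02 in INPUT, 2.93 in BO and 1.62 in IP. L1Md_A_16105 was lowest of the loci past the filter against INPUT, with 10.7 in INPUT and 3.97 in IP of the same table. L1Md_A_15732, with 7.49 in BO and 2.92 in IP, and L1Md_A_9315, with 6.97 and 3.94, were the other loci low against BO. These loci were named for their extreme ratios, so the ratios describe them and test nothing.

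Weak and strong loci both had a higher level in IP. Loci were binned by their mean in a group outside the comparison, and the means were summed in each bin. For IP vs. BO, binned by TOTAL, the log2 ratio of sums was 1.56 for 3230 loci at 0 in TOTAL, 1.94 for 2176 loci above 0 and under 1, 2.00 for 1026 loci from 1 to under 5 and 1.98 for 106 loci from 5 to under 10. It was 1.21 for the 24 loci at 10 or more, and 1.56 without L1Md_A_3685. In IP vs. INPUT the bins gave 1.52, 1.63, 1.75, 1.89 and 1.67, and in IP vs. TOTAL, binned by INPUT, 1.40, 1.68, 1.90, 1.94 and 1.71. Of the IP signal, 43.1% lay on the 1026 loci from 1 to under 5 in TOTAL, 35.1% on those below 1 or at 0 and 7.45% on the strongest 24.

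**Figure D5:**
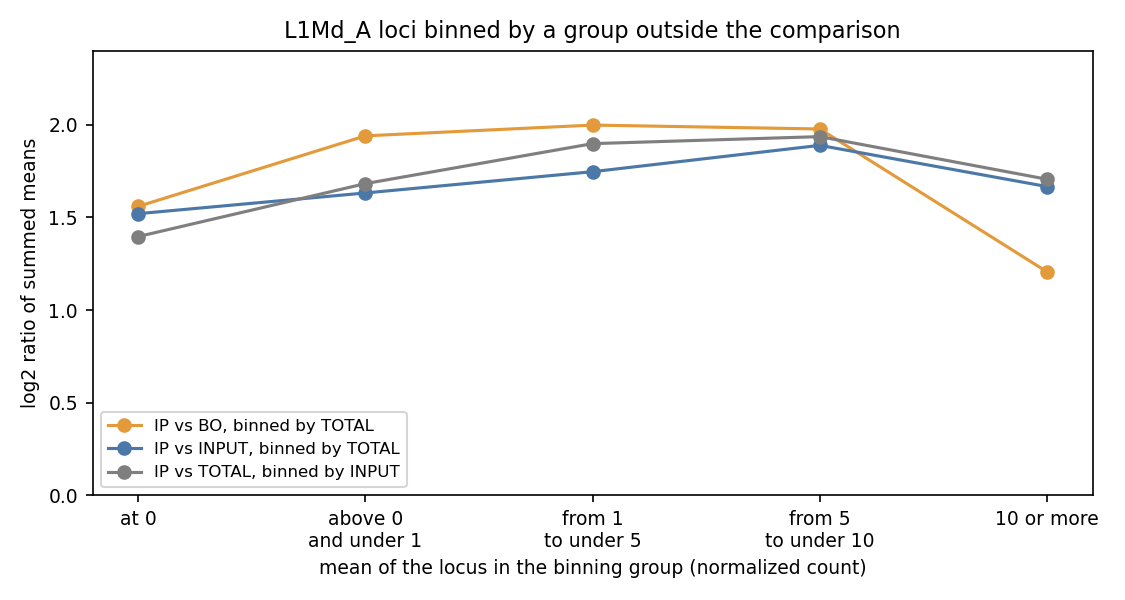
Log2 ratio of the summed IP means to the summed means of BO, INPUT or TOTAL for L1Md_A loci binned by their mean normalized count in a group outside the comparison (TOTAL, or INPUT for IP vs. TOTAL). The sums lie between 1.40 and 2.00 in every bin but that of 10 or more in IP vs. BO, which is at 1.21 with L1Md_A_3685 and at 1.56 without it.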

How the data were processed

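Reads came from stranded, rRNA-depleted RNA-seq libraries, 75 nt single-end. For subfamilies, the authors used STAR 2.6.0c to map reads to mm10, allowing 100 places per read, then reassigned ambiguous reads with Telescope, summed them per subfamily and normalized with EBSeq. The deposited signal is that normalized count, and in each library 100% of values were whole multiples of 1 read within a tolerance of 0.1. For loci, the deposited signal is the authors' mean normalized count per group from DESeq2 1.24.0. The same tables hold the authors' log2 fold changes, standard errors, statistics and p-values, which were not used. No sample column was left out.

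Subfamilies with a mean of at least 10 were fitted with limma 3.58.1 in R 4.3.3 on log2(count + 1), all 4 groups together, with Benjamini-Hochberg adjustment over 1180 subfamilies. The fit was also tested on simulated data, and that outcome is not given here. Ratios within libraries were compared by exact two-sided permutation tests. Loci were counted and ranked by ratios of the group means plus 1, while the ratios printed for named loci and for sums have nothing added. Counting intervals are 95% exact Poisson or binomial intervals on the fewest reads a mean allows. Expected loci at an equal depth were calculated by binomial thinning. Alternatives were pseudocounts of 0.1 and 10, other filters and scalings, edgeR 4.0.16 on recovered reads, a replicate block and libraries left out. The labels do not say what a replicate number marks, but TOTAL and INPUT libraries of the same number deviated together from their group means, with correlations of 0.321 to 0.629 over subfamilies in 3 of 3 pairs. TOTAL 2 with INPUT 3 (0.331) correlated as well as the lowest of these pairs, and TOTAL 3 with INPUT 2 (0.243) almost as well. The members, lists and tests were chosen with earlier results of these data known, and the choice of loci by a group outside the comparison and the bins by level were added after seeing the data. Named loci are the 8 highest in IP, the 3 highest in TOTAL, INPUT and BO, and the 5 highest and 3 lowest ratios to each group past the filter.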

Additional observations from a re-analysis of the deposited data

How the results depend on the processing

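The call of L1Md_A as higher in IP held against BO, INPUT and TOTAL under every alternative run, with log2 fold changes of 2.18 to 2.49 in IP vs. BO, 1.73 to 1.90 in IP vs. INPUT and 1.74 to 1.91 in IP vs. TOTAL when libraries were left out. Scaling to library totals gave 2.82, 2.36 and 3.36, and the median of all subfamilies moved to 0.36, 0.48 and 1.49, and 126, 130 and 1011 of 1173 subfamilies were called higher, against 60, 38 and 34 of 1180. Called lower were 17, 18 and 15, against 45, 34 and 41. In INPUT vs. TOTAL this scaling called 631 higher, against 0, and in BO vs. INPUT 20 higher and 20 lower, against 31 and 33. Subfamilies called higher in IP vs. INPUT were 25 with a pseudocount of 10, 24 with a mean of at least 100 and 19 without replicate 2, against 38. The difference of INPUT and TOTAL changed sign, with 1.003 under library totals and -0.03 to 0.01 with a replicate left out (-0.0276, 0.0116 and 0.0119 without replicates 1, 2 and 3). BO vs. INPUT ran from -0.59 to -0.36 with libraries left out and never passed a log2 fold change of 1. Its adjusted p in limma was 0.0194 with scaling to totals of transposable elements, 0.0401 with the compared groups only and 0.0444 without replicate 1. With the replicate number as a block, the log2 fold changes stayed at 2.32, 1.81, 1.81, -0.0014 and -0.51, and no call changed, while the adjusted p of BO vs. INPUT was 0.00421. The main fit took the numbers as names. For BO vs. INPUT and the comparisons with IP, at most 2 of the 3 same-numbered pairs of libraries had deviations correlated over 0.1 (0.0615 to 0.558 for BO and INPUT, -0.142 to 0.122 with IP). Such correlations cannot exclude a pairing. In the paper, pooled fractions of the TOTAL extracts served as input for both IP and BO, and L1Md_A was highest in replicate 1 of every group. Whether a number marks such a set is not given, so for BO vs. INPUT the fits with and without the block both stand. For TOTAL and INPUT, all 3 same-numbered pairs passed 0.1, but so did TOTAL 2 with INPUT 3 (0.331) and TOTAL 3 with INPUT 2 (0.243). Pairing by number is thus not settled for TOTAL and INPUT either. With the block, 0 subfamilies were called higher and 5 lower in INPUT, against 0 and 4. No ratio of L1Md_A to another subfamily changed sign. The number of loci with a log2 ratio above 1 depends on the settings. In IP vs. BO, INPUT and TOTAL it was 252, 389 and 387 with the settings above. These were 88.7, 86.3 and 85.1% of the L1Md_A loci past the filter, against 15.2, 20.2 and 21% of repeat loci. With a pseudocount of 10 the number was 83, 121 and 144 (29.2, 26.8 and 31.6%, against 5.44, 5.82 and 6.45%). An average of at least 1 gave 1112, 1289 and 1328 (67.7, 64.0 and 65.3%, against 13.5, 17.4 and 16.1%). An average of at least 20 gave 18, 34 and 34 (90, 94.4 and 91.9%, against 19.2, 24.0 and 27.8%). Alternatives on full-length loci and on intact reading frames were not run, since they need positions and sequences not used here. Loci have no value per library, so no library could be left out of their means.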
